A study of Homo sapiens with 6 samples.

Results

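The cytosolic ribosomal protein genes comprised 81 of the 34644 gene names in the count tables, 49 of the large subunit and 32 of the small subunit. They were taken by name: RPL or RPS followed by digits and at most 1 letter A, X or L, together with RPLP0, RPLP1, RPLP2 and RPSA. S6 kinase genes, pseudogenes and entries on chromosome Y were left out, and entries that shared a name were summed. The libraries came from HK-2, an immortalized line of human proximal tubular cells. The cells of 3 libraries had been infected with a negative control lentivirus (IR+NC-LV, the control libraries) and those of the other 3 with a lentivirus for overexpression of PRDM16 (IR+PR-LV, the PRDM16 libraries), and both groups received 8 Gy of X-rays and were harvested at day 7. By the methods of the study, transduced cells were selected with puromycin, so each group was a transduced pool of 1 cell line, and no unirradiated library was analysed here. The replicates were labelled only as cell 1 to cell 3, so the p-values measure the spread between these libraries, which may be technical. The comparison asked how the transcriptome of irradiated cells differed with PRDM16 overexpression, here for the genes of the protein synthesis machinery.

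The ribosome is built from a small subunit, which reads the messenger RNA, and a large subunit, which joins amino acids into the growing chain, and each consists of ribosomal RNA and a set of proteins that are needed in equal numbers. The messenger RNAs of these proteins belong to the most abundant in dividing cells, and nearly all start with a cytosine followed by an unbroken run of pyrimidines, the terminal oligopyrimidine tract, through which mTOR signalling and the protein LARP1 control their translation. Some ribosomal proteins, RPL5 and RPL11 among them, also bind the p53 inhibitor MDM2 when ribosome assembly is disturbed, which links ribosome production to p53, the factor that halts the cell cycle after irradiation.

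This shared start was read from RefSeq sequences (GRCh38.p14), which held 79 start sites of 64 members. Immediately at the annotated start, 46 of the 79 sites (58.2%) had a C followed by 4 bases that were each C or T, against 4.07% of all 35116 start sites in the table. The longest C and T run overlapping the 20 bases around the start had a median of 11 bases among the members and 4 among all starts. The motif CTTTC stood on the gene's own strand of that window in 35.4% of the members' sites and 3.10% of all sites. On the opposite strand it stood in 2.53% and 1.97%. Mitochondrial ribosomal protein genes had the C followed by 4 pyrimidines at 7.06% of their sites. The windows below hold 15 bases on each side of the start, with the pyrimidine run in capitals. They were chosen to show the tract in abundant members of both subunits (RPLP0, RPL41, RPS6), in members to which the comparison below returns (RPL39, RPS27), and its absence in the paralogs RPL10L and RPS27L beside RPL10 and RPS27. The windows were chr12:120201097-120201126 on the minus strand (RPLP0), chr12:56116618-56116647 on the plus strand (RPL41), chr9:19380222-19380251 on the minus strand (RPS6), chrX:119791616-119791645 on the minus strand (RPL39), chr1:153990747-153990776 on the plus strand (RPS27), chr15:63157463-63157492 on the minus strand (RPS27L), chrX:154398362-154398391 on the plus strand (RPL10, 1 of 3 listed starts) and chr14:46651767-46651796 on the minus strand (RPL10L).
RPLP0: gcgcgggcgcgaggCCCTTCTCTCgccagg
RPL41: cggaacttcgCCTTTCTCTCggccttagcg
RPS6: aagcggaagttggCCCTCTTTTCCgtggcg
RPL39: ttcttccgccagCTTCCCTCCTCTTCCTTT
RPS27: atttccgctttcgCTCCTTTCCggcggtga
RPS27L: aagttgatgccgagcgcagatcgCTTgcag
RPL10: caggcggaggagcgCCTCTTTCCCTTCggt
RPL10L: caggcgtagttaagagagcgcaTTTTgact

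Members with a C and 4 pyrimidines exactly at a listed start did not have the higher median TPM. The 46 members with such a start had a median of 822 TPM. The 18 without one, RPL3, RPL4 and RPS4X among them, had a median of 1285 TPM. Some of these 18 had a pyrimidine run near the start instead, of 12 bases in RPL4 and 10 in RPL10A. The levels of RPS10, RPL36A, RPS9, RPS18, RPS25 and RPL7A in the first set and of RPL17 in the second are uncertain, as described below. In the comparison of the groups, the median log2 fold change was 0.04 over the first set and 0.07 over the 17 tested members of the second. These are descriptions of annotated starts, and the start used in these cells was not measured.

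Messenger RNA selected with oligo(dT) beads was sequenced in bulk, with total counts from 13407074 to 28540041 per library. The count of PRDM16, the overexpressed gene, was 2, 0 and 1 in control and 14, 10 and 8 in PRDM16 libraries. All 8 renal epithelial markers had counts, with KRT8 at 834 TPM and PAX8 at 138 TPM, but PAX2 was at 3.06 TPM and CDH1 at 0.42 TPM. None of the 8 passed the test between the groups (1 of 8 at an unadjusted p under 0.05 by edgeR, 0 by DESeq2). Of 9 proximal tubule markers, GGT1 reached 69.9 TPM and AQP1 2.92 TPM, whereas LRP2, SLC22A6 and SLC22A8, which define the segment in the kidney, were at or under 0.0193 TPM. Of 10 markers of endothelial cells, leukocytes and fibroblasts, CD68 (177 TPM), LUM (123 TPM) and COL1A1 (10.5 TPM) were expressed and the other 7 lay under 1 TPM. None of the proximal tubule and other markers tested passed the threshold by edgeR or DESeq2, with 0 of 5 and 1 of 4 at an unadjusted p under 0.05.

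Most of the members were among the highest transcripts of these cells. TPM, a share of all transcripts after division by the listed exon length, exceeded 1000 in 41 of the 81 members and lay between 100 and 1000 in 31, with a median of 1005, and 37 members ranked among the 100 gene names with the highest TPM. RPLP0, the base of the stalk that recruits elongation factors, stood first with 4995, 5021 and 5045 TPM in control cells and 5135, 5286 and 4841 TPM in PRDM16 cells. RPL12, which sits beside that stalk, followed with 4218, 4092 and 4323 TPM and 4173, 4209 and 4211 TPM, and RPL41, the smallest ribosomal protein, had 4369, 4504 and 3497 TPM and 3856, 3656 and 3665 TPM. The groups overlapped in RPLP0 and RPL12, and in RPL41 the control libraries enclosed the PRDM16 libraries.

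Under 100 TPM lay 7 members of at least 1 TPM and the paralogs RPL3L and RPL10L, and for several of them the annotation leaves the level uncertain. RPS10 (10.4 TPM) and RPL36A (5.18 TPM) share 60.0% and 43.8% of their exon bases with the readthrough genes RPS10-NUDT3 and RPL36A-HNRNPH2 on the same strand, and RPL17 (107 TPM) shares 47.2% with RPL17-C18orf32. RPS9 (55.1 TPM) and RPS25 (49.6 TPM) are listed again on alternate scaffolds, as are RPS18 and RPL7A. Reads in such shared sequence can be split or left uncounted, so a low count in these 7 genes does not show low expression. RPS29, a zinc-binding protein of the small subunit, stood at 23.0 TPM with a listed exon length of 7472 bases for a coding length of 168 bases, and RPL37 at 154 TPM with 7573 listed for 291 coding bases, and the transcripts used were not measured, so both levels per listed length may be understated.

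The paralogs RPL10L, RPL3L, RPL39L and RPS27L had a lower TPM than RPL10, RPL3, RPL39 and RPS27. RPL10L, a testis paralog of RPL10, had 1 count in control replicate 3 and none in the other 5 libraries, where a count of 0 allows up to 0.105 to 0.180 CPM (counts relative to the library total; 3 counts of the total, counting error only). RPL3L, the paralog of RPL3 in striated muscle, had 3, 0 and 2 counts in control cells and 1, 1 and 2 in PRDM16 cells. Neither passed the filter on low counts, so no fold is given. RPL39L, expressed in testis and in several tumours, was at 91.7 TPM beside 2505 TPM of RPL39, and RPS27L, a target gene of p53, at 26.4 TPM beside 698 TPM of RPS27. RPS27L has 6110 listed exon bases for 252 coding bases, and RPS27 has 584 listed, so the level of RPS27L per listed length may be understated. In CPM the means in control and PRDM16 cells were closer, 50.4 and 48.6 for RPS27L and 142 and 108 for RPS27. RPL39L had 22.5, 24.6 and 17.1 CPM in control cells and 20.2, 19.0 and 19.9 CPM in PRDM16 cells (log2 fold change -0.13, SE 0.13, edgeR adjusted p = 0.769). RPS27L had 51.5, 57.7 and 42.1 CPM and 41.3, 50.7 and 53.9 CPM (log2 fold change -0.06, SE 0.13, edgeR adjusted p = 0.905), and both pairs of groups overlapped.

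Together the members took a like share of the library in both groups. Their share of all counts was 3.87%, 4.04% and 3.57% in control cells (3.83% ± 0.236, SD, n = 3) and 3.98%, 3.83% and 3.72% in PRDM16 cells (3.84% ± 0.130, SD, n = 3), and the lowest and the highest library both belonged to control cells. Large subunit genes held 2.51% ± 0.156 and 2.50% ± 0.0704 (SD, n = 3 each), and small subunit genes 1.32% ± 0.0797 and 1.34% ± 0.0622. As a share of summed TPM the members held 10.9% ± 0.403 in control cells and 10.8% ± 0.325 in PRDM16 cells. Each difference between the groups in these shares was smaller than the SD between libraries. In bulk RNA, fewer cells of a kind and less RNA per cell cannot be told apart.

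The spread between libraries of 1 group was wider for the members than for other genes of like abundance. The within-group coefficient of variation of normalized CPM had a median of 8.60% in the 67 members of at least 100 CPM and 5.96% in the 2490 other genes at that level. RPL12 was the steadiest member, at 1.81%, followed by RPS3A at 2.90%. RPS25 (26.0%) and RPS10 (23.4%) were among the most variable of the tested members within groups. The library with the fewest counts, control replicate 3, stood apart: without it the median over the 79 tested members fell from 8.88% to 5.95%. The value of other genes without that library is not given here, so the members cannot be set against them in that case.

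No ribosomal protein gene passed the threshold for a difference between the groups. Of the 79 members that passed the filter on low counts, 0 were called at an adjusted p under 0.05 (edgeR, Benjamini-Hochberg over 15054 genes), where 12 genes (0.0797%) were called in all. The direction was mixed, with 46 members higher and 33 lower in PRDM16 cells, and the median log2 fold change was 0.04 against 0.00 over all genes tested. DESeq2 called RPL7A, higher, and RPS27, lower, among 154 genes called of the same 15054. At an unadjusted p under 0.05, 10 members (12.7%) were higher, against 4.41% of all genes, and 6 (7.59%) were lower, against 6.09% of all genes. All 3 libraries of PRDM16 cells lay above all 3 of control cells for 8 members (10.1%), where the share over all genes was 7.45%, and below them for 1 member (1.27%), where it was 9.56%. Abundant genes as a whole leaned the same way: of 2144 other genes of at least 100 CPM and over 600 coding bases, 383 lay fully above the controls and 101 fully below. Without control replicate 3, which had the lowest share of member counts, 36 members were higher and 43 lower, with 5 and 17 at an unadjusted p under 0.05. Over all genes, 1396 of 15337 had an unadjusted p under 0.05 by edgeR in that fit, in either direction. Large subunit genes had 0 of 47 called, 3 higher and 3 lower at an unadjusted p under 0.05, and a median of 0.03. Small subunit genes had 0 of 32 called, 7 higher and 3 lower, and a median of 0.06, and DESeq2 called 1 gene in each subunit.

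The stalk proteins, which contact the elongation factors, did not pass the test. RPLP0 had 1788, 1830.2 and 1686 CPM in control cells and 1862, 1934 and 1732 CPM in PRDM16 cells (log2 fold change 0.06, SE 0.06, edgeR adjusted p = 0.787). The acidic proteins that RPLP0 carries lay slightly the other way, RPLP1 with 261, 277 and 243 CPM against 279, 238 and 241 CPM (log2 fold change -0.04, SE 0.08) and RPLP2 with 174, 172 and 158 CPM against 174, 149 and 158 CPM (log2 fold change -0.07, SE 0.07). In all 3 genes the groups overlapped and the difference was smaller than its standard error.

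Among the large subunit proteins that bind MDM2, RPL5 had the clearest separation. It was at 809.9, 842 and 796 CPM in control cells and 878, 922 and 929 CPM in PRDM16 cells, a mean of 816 ± 23.9 against 909.9 ± 27.9 CPM (SD, n = 3 each). The lowest PRDM16 library exceeded the highest control library by a small margin (log2 fold change 0.16, SE 0.06, edgeR adjusted p = 0.391, unadjusted p = 0.0216). RPL11, which joins RPL5 and the 5S ribosomal RNA in 1 particle, had 595, 695 and 584 CPM and 750.5, 597 and 599 CPM, with PRDM16 replicate 1 above the other 5 libraries (log2 fold change 0.05, SE 0.10). RPL23 had 692, 763 and 531 and 605, 709 and 685 CPM (log2 fold change 0.01, SE 0.12), and RPL26, which also binds the messenger RNA of p53, had 739.5, 777 and 626 and 699.8, 771 and 761 CPM (log2 fold change 0.06, SE 0.08). In RPL11, RPL23 and RPL26 the groups overlapped, and leaving out 1 library turned the sign. MDM2 itself had a log2 fold change of 0.00 (SE 0.08, edgeR adjusted p = 0.998).

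Several other large subunit genes were a little higher in PRDM16 cells without passing the threshold. RPL4 (0.13, SE 0.06) and RPL6 separated the groups fully, and RPL6 had 1339, 1430.4 and 1104 CPM in control cells and 1567, 1570.4 and 1539.7 CPM in PRDM16 cells, with no overlap (log2 fold change 0.27, SE 0.09, edgeR adjusted p = 0.349). RPL7A, which lies at the surface of the large subunit, had the largest positive difference, 33.7, 32.3 and 31.6 CPM against 38.9, 55.0 and 57.7 CPM, a mean of 32.5 ± 1.08 against 50.5 ± 10.1 CPM (SD, n = 3 each). All PRDM16 libraries lay above the control libraries, replicate 1 least so (log2 fold change 0.64, SE 0.13, edgeR adjusted p = 0.128). RPL7A is listed at 133348218 to 133351426 of chromosome 9 (plus strand) and again on an alternate scaffold, which held 4357 of its counts against 581 on the chromosome. Its call depended on the procedure: the adjusted p was 0.000616 with DESeq2, and with edgeR 0.0112 without PRDM16 replicate 1.

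RPL3, at the peptidyl transferase centre, had 899, 937 and 814 CPM in control cells and 969, 949 and 889 CPM in PRDM16 cells (log2 fold change 0.08, SE 0.07). RPL10, whose joining is a last step in making the large subunit competent, had 794, 811 and 715 and 774, 869.8 and 816 CPM (log2 fold change 0.08, SE 0.07). Its listed exons overlap those of DNASE1L1 on the opposite strand over 42.7% of their bases, and whether the counting used the strand is not given in the sources used here. RPL13A, often used as a reference gene, had 957, 1014 and 869 and 1098, 962 and 859 CPM (log2 fold change 0.04, SE 0.09), and RPL22, an RNA-binding protein that is not essential in mice, 469.6, 476 and 394 and 480.3, 482 and 428 CPM (log2 fold change 0.05, SE 0.08). Groups overlapped in all 4. RPL36A gave 1.31, 1.19 and 0.864 and 1.55, 1.11 and 1.25 CPM, too few reads for a small difference to be detectable (log2 fold change 0.17, SE 0.24).

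In the small subunit, RPS6, the substrate of the S6 kinases, had 657, 721 and 636 CPM in control cells and 835, 754 and 719 CPM in PRDM16 cells, with control replicate 2 just above the lowest PRDM16 library (log2 fold change 0.20, SE 0.08, edgeR adjusted p = 0.409). RPS4X had 761, 821 and 772 and 942, 882 and 830.0 CPM with no overlap (log2 fold change 0.17, SE 0.07, edgeR adjusted p = 0.409). RPS3A, on the solvent side near the exit of the messenger RNA, had 1182, 1234 and 1164 and 1358, 1313 and 1387 CPM, also with no overlap (log2 fold change 0.18, SE 0.06, edgeR adjusted p = 0.338). In RPS6 and RPS4X replicate 1 was the highest PRDM16 library, and in RPS3A replicate 3. RPS2, at the entry of the messenger RNA, had 976, 1004 and 976 and 1299, 1133 and 1022 CPM, with PRDM16 replicate 1 highest and replicate 3 close to the controls (log2 fold change 0.22, SE 0.08, edgeR adjusted p = 0.396). RPS7 (409.8, 409 and 380.4 and 431, 447 and 443 CPM, log2 fold change 0.14, SE 0.06) completed the small subunit genes whose groups did not overlap upward.

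Other small subunit genes overlapped between the groups. RPSA, which also serves as a laminin receptor, had 758, 788 and 719 CPM in control cells and 858, 830.3 and 773 CPM in PRDM16 cells (log2 fold change 0.12, SE 0.06). RPS3, a protein with a second role in DNA repair, had 606, 619 and 540.3 and 684, 568 and 583 CPM (log2 fold change 0.06, SE 0.08). In both genes PRDM16 replicate 1 was the highest of the 6 libraries. RPS14 and RPS19, whose loss of 1 copy leads to anaemia, had log2 fold changes of 0.07 (SE 0.11) and 0.12 (SE 0.09), and both were highest or near highest in PRDM16 replicate 1, with 653, 591 and 556 CPM and 563, 466 and 449 CPM in the PRDM16 libraries. RPS15, in the head of the small subunit, had 356, 377 and 349 and 525, 442 and 357 CPM, where replicates 1 and 2 of PRDM16 cells lay above all controls and replicate 3 among them (log2 fold change 0.29, SE 0.12, edgeR adjusted p = 0.426). RPS27A, made as a fusion with ubiquitin, had 269.8, 296 and 249 and 319, 269 and 292 CPM (log2 fold change 0.11, SE 0.08).

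Strongly negative log2 fold changes were found in short members. RPS27, a zinc-binding small subunit protein, had 143, 165 and 117 CPM in control cells and 111, 106 and 108 CPM in PRDM16 cells, a mean of 142 ± 24.0 against 108 ± 2.74 CPM (SD, n = 3 each), and was the only member with all PRDM16 libraries below all control libraries (log2 fold change -0.39, SE 0.11, edgeR adjusted p = 0.266). DESeq2 gave RPS27 an adjusted p of 0.0399, and over the edgeR fits that left out 1 library the smallest adjusted p was 0.0649. RPS29 had 63.0, 66.3 and 50.6 and 56.6, 38.7 and 41.0 CPM (log2 fold change -0.41, SE 0.15, edgeR adjusted p = 0.391), and RPL39, which lines the exit tunnel, 339, 395 and 262 and 279, 245 and 278 CPM (log2 fold change -0.31, SE 0.13, edgeR adjusted p = 0.437). RPL38, which mouse embryos need to translate a set of Hox messenger RNAs, had 158, 196 and 136 and 151, 119 and 119 CPM (log2 fold change -0.33, SE 0.13, edgeR adjusted p = 0.427) and RPL37 420.3, 436 and 330.2 and 338, 304 and 319 CPM (log2 fold change -0.30, SE 0.10, edgeR adjusted p = 0.349), whereas RPL41, the shortest of all, had 908, 953 and 678 and 811, 776 and 761 CPM (log2 fold change -0.11, SE 0.11, edgeR adjusted p = 0.764). In RPS29, RPL39, RPL38 and RPL37 the groups overlapped because control replicate 3 lay among the PRDM16 libraries, and in RPL41 that library lay below them all. For RPL38, 59.0% of the exon bases overlap MGC16275 on the opposite strand, so its reads may include that gene.

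Grouped by coding length, a split made after these values had been seen, the members followed a gradient. All 11 members of up to 300 coding bases were lower in PRDM16 cells, with a median log2 fold change of -0.26 (from -0.41 to -0.06), 5 of them at an unadjusted p under 0.05. The 46 members of over 300 and up to 600 bases were divided into 26 higher and 20 lower, at a median of 0.01, and of the 22 members over 600 bases 20 were higher and 2 lower, with a median of 0.09 and 7 higher at an unadjusted p under 0.05. Other genes of at least 100 CPM did not show this order: the medians were 0.06 in 40 genes of up to 300 bases, 0.08 in 253 genes of the middle class and 0.05 in 2144 longer genes. At an unadjusted p under 0.05, 1 of these 40 short genes was lower and 256 of the 2144 long ones were higher. Across the 74 tested members with 1 listed entry, Pearson's r between log2 coding length and the log2 fold change was 0.70 and Spearman's rho 0.73, and over all 79 tested members, those with several entries included, they were 0.27 and 0.71. Across 2437 other genes of at least 100 CPM they were -0.18 and -0.21. These are descriptions across genes, which share the same 6 libraries and are not independent replicates. After the trend with coding length over all genes had been removed from each library, r among the 74 members with 1 entry was 0.64. After trends with length and GC content it was 0.65. Over all 79 tested members r was 0.240 and 0.242 in these fits, and rho 0.68 and 0.69.

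Among the shortest members the gradient set 2 control libraries apart from the other 4 libraries. The 11 shortest members deviated from their mean over the 6 libraries by a median of 0.19 and 0.33 log2 CPM in control replicates 1 and 2 and by -0.18 in control replicate 3. In the PRDM16 libraries the medians were -0.01, -0.21 and -0.15, so control replicate 3 lay within their range. The members over 600 bases had medians of -0.05, 0.02 and -0.13 in control cells and 0.10, 0.07 and -0.00 in PRDM16 cells, where control replicate 3 was the lowest of the 6 libraries. Across the 74 members with 1 entry, r between log2 coding length and the deviation was -0.73 and -0.71 in control replicates 1 and 2, 0.18 in replicate 3, and 0.27, 0.61 and 0.42 in the PRDM16 libraries. Over all 79 tested members r was -0.24 and -0.30 in control replicates 1 and 2, and rho -0.73 and -0.75. In 2437 other genes of at least 100 CPM, r with log2 coding length was -0.17, -0.35 and 0.48 in control replicates 1 to 3. In the PRDM16 libraries it was 0.24, -0.42 and -0.20 for those genes. Without control replicate 2, the median log2 fold change of the shortest members was -0.13, and without control replicate 3 it was -0.41. What set these 2 libraries apart was not tested. PRDM16 replicates 1 and 3 differed in how the deviation went with the GC content of genes. Across 2437 other genes of at least 100 CPM, r between GC percent and the deviation was 0.69 in PRDM16 replicate 1 and -0.74 in PRDM16 replicate 3. Across the 74 members with 1 entry it was 0.34 and -0.32. The bearing of GC content on single members was not tested.

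A wide range between libraries went with a second listed entry. Among names of at least 10 CPM, and with a limit of 4 times set after values had been seen, the highest library exceeded the lowest by more than that in 50 of 244 names with several entries (20.5%) and in 0 of 9588 names with 1 entry. RPS9, RPS18, RPS25 and RPL7A, members with several entries, stayed under that limit, with ratios of 1.93, 1.73, 1.80 and 1.83. RPS9, RPS18 and RPS25 had few reads. RPS9, listed 10 times, had 12.5, 18.2 and 15.3 CPM in control cells and 15.7, 21.6 and 24.1 CPM in PRDM16 cells (log2 fold change 0.41, SE 0.18, edgeR adjusted p = 0.45). RPS18 (21.2, 18.9 and 15.7 and 14.6, 22.8 and 25.4 CPM, log2 fold change 0.17, SE 0.19) and RPS25 (6.20, 8.97 and 6.19 and 5.06, 8.62 and 9.08 CPM, log2 fold change 0.09, SE 0.23) overlapped between the groups. Scaffold entries held between 0.146% and 0.273% of the members' counts in a library, and the 1 listed pseudogene of a member, RPSAP58, held at most 0.00809% of all counts. Pseudogenes without an entry cannot show in that share. Members differed in how many 100-base stretches of their GENCODE transcript also occur in other genes. The share was 77.3% in RPL9, 66.9% in RPS3A, 60.0% in RPS27 and 57.8% in RPL6, but 6.78% in RPL5 and 0% in RPS4X. What this did to their counts was not tested. Over the 74 tested members with 1 entry, 0 were called by edgeR and 1 by DESeq2, 13 had an unadjusted p under 0.05, and the median log2 fold change was 0.03.

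In the remaining lists of ribosomal proteins and their helpers edgeR made no call, and DESeq2 called the assembly factor GAR1. Of 7 ribosomal proteins outside the name rule, 0 were called by edgeR or DESeq2 and 1 had an unadjusted p under 0.05. FAU, which makes the small subunit protein eS30, had the highest log2 fold change (0.19, SE 0.11), followed by RPL7L1 (0.14, SE 0.06), and RPL36AL (-0.08, SE 0.10) was among the lowest. Of 18 other messenger RNAs counted among those with an oligopyrimidine tract, 0 were called by edgeR or DESeq2. There were 15 higher and 3 lower, with a median of 0.09. At an unadjusted p under 0.05 by edgeR, 5 (27.8%) were higher and 0 lower, against 4.41% and 6.09% of all genes. All PRDM16 libraries lay above all control libraries for 9 (50%) and below them for 0, against 7.45% and 9.56% of all genes. Abundant genes as a whole leaned upward too. The initiation factor subunit EIF3E (0.24, SE 0.09) and the histone chaperone NAP1L1 (0.21, SE 0.06) were highest. The elongation factor subunits EEF1B2 (-0.85, SE 0.60) and EEF1D (-0.15, SE 0.53) were lowest, and both have 2 listed entries and 1 control library far above the rest, 48.1, 9.54 and 8.13 CPM and 23.2, 129 and 27.3 CPM in control cells.

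Of 40 ribosome assembly factors, 0 were called by edgeR and 1, GAR1, by DESeq2. There were 31 higher and 9 lower, with a median of 0.08. At an unadjusted p under 0.05 by edgeR, 10 (25%) were higher and 2 (5%) lower, against 4.41% and 6.09% of all genes. BCCIP (0.24, SE 0.07) and the nucleolar GTPase GNL3 (0.23, SE 0.06) were highest. FBL, the methyltransferase of ribosomal RNA, with 2 listed entries (-0.79, SE 0.60), and GAR1, of the pseudouridylation complex, were lowest. GAR1 had 56.6, 56.2 and 43.5 CPM in control cells and 33.5, 39.2 and 40.1 CPM in PRDM16 cells with no overlap (log2 fold change -0.47, SE 0.11, edgeR adjusted p = 0.199), and its adjusted p with DESeq2 was 0.0151.

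RNA polymerase I, which transcribes ribosomal RNA, had 14 measured subunits and factors, none called and none at an unadjusted p under 0.05 by edgeR and none by DESeq2, with a median of 0.05. POLR1H (0.36, SE 0.20) and UBTF (0.18, SE 0.10) were highest, and RRN3 (-0.35, SE 0.36) and TAF1D (-0.17, SE 0.10) lowest. A list of 17 genes for the control of ribosomal protein messenger RNAs held the mTOR pathway and LARP1, and also MDM2 and ZNF622. None of them was called by either tool and none had an unadjusted p under 0.05 by edgeR, with 8 higher, 9 lower and a median of -0.02. MTOR (-0.03, SE 0.06) and LARP1 (0.01, SE 0.08) differed by less than their standard errors, EIF4E (0.16, SE 0.09) and EIF4EBP2 (0.13, SE 0.08) were highest, and DEPTOR (-0.20, SE 0.23) and TSC2 (-0.11, SE 0.09) lowest. Of 77 tested mitochondrial ribosomal protein genes, 0 were called by edgeR or DESeq2 and 3 had an unadjusted p under 0.05, with 50 higher, 27 lower and a median of 0.03. MRPL19 (0.27, SE 0.08) and MRPL34 (0.26, SE 0.14) were highest among them, and MRPL23 (-0.84, SE 0.59) and MRPS18B (-0.55, SE 0.48), both with several listed entries, were lowest.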

How the data were processed

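Poly(A) RNA from 6 samples of irradiated HK-2 cells was made into libraries with oligo(dT) beads and random hexamers and sequenced. The authors aligned the reads to hg38 and counted them per gene with featureCounts 2.0.1, per the submitters' processing notes, which also name CASAVA and DESeq2 1.16.1; the aligner is not given in the sources used here. The deposited read counts were without normalization, and the TPM and FPKM values deposited by the authors follow exactly from the counts and the listed exon lengths. Counts were summed by gene name (38648 entries, 34644 names, 98 entries for 81 members). Groups were compared with edgeR 4.0.16 in R 4.3.3: filterByExpr (minimum count 10, minimum total 15), TMM factors from 0.981 to 1.04, glmQLFit and glmQLFTest without covariates, and Benjamini-Hochberg adjustment over 15054 names at a threshold of 0.05. CPM are TMM-normalized. Deviations used log2(CPM + 0.5). Coding length and GC content came from GENCODE release 29 and were known for 100% of the tested members and 85.4% of the tested genes. The procedure was tested on simulated data.

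The members and lists were chosen with earlier results of these data known, the genes of the other lists by the 2 highest and 2 lowest fold changes. The rule named 26 members by role, the 3 highest and lowest in TPM, the 3 largest fold changes each way and the 3 largest coefficients of variation; RPL37, RPL38, RPL4, RPL6, RPS2, RPS3A, RPS7, RPS10, RPS18, RPS25, MDM2, MTOR and LARP1 were named after their values had been seen. Alternatives were RLE and upper-quartile normalization, TMM without the members, DESeq2 1.42.0, other filters and thresholds, entries as listed, the listed length trend removed, a replicate block, and each library left out. Trends with coding length and GC content, names with 1 entry only, and classes of coding length were added after seeing the data. The results of some genes that the rule would name are not reported here. Fold changes are of 3 against 3 libraries, whose number limits the precision, and intervals on counts cover counting error only.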

Additional observations from a re-analysis of the deposited data

How the results depend on the processing

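The median log2 fold change of the members stayed within -0.03 to 0.09, less than the spread between libraries, under every alternative run, and was below 0 only without control replicate 3. Members called rose from 0 to 2 with DESeq2 (RPL7A and RPS27) and to 8 with no filter on low counts (RPL37, RPL38, RPL39, RPL7A, RPS15, RPS27 and RPS29 among them), and were 0 to 1 with a library left out (RPL7A without PRDM16 replicate 1, and 1 without control replicate 3). Over all genes, 12 calls became 154 with DESeq2, 354 with no filter, 64 with 1-entry names only, 19 with the listed length trend removed, 39 with the coding length trend and 78 with length and GC trends removed, 7 at a threshold of 0.01, 75 at 0.1, and 2 (without PRDM16 replicate 3) to 35 (without control replicate 2) with a library left out, 6 without PRDM16 replicate 1. With no filter EEF1B2, FBL and GAR1 were called too, and GAR1 with DESeq2. Same-numbered libraries deviated with correlations of -0.02 to 0.06, so the numbers were not taken to pair them. The replicate block gave 18 calls, 0 of them members, 19 members at an unadjusted p under 0.05, 0.26 for EEF1D and -0.0018 for MDM2. The median within-group variation ranged from 5.95% to 10.6% with a library left out. Signs turned to 0.0015 for RPL41 with length and GC trends removed to 0.019 for RPLP2 with the listed length trend removed, to 0.039 and 0.019 for MTOR with length and GC and with length trends removed, and to -0.00037 and -0.0060 for MDM2 with at least 10 counts in every library and with upper-quartile normalization. With a library left out they turned in RPL11 (-0.061 to 0.14), RPL13A (-0.055 to 0.12), RPL22 (-0.025 to 0.11), RPL23 (-0.12 to 0.12), RPL26 (-0.025 to 0.12), RPLP1 (-0.12 to 0.0029), RPS10 (-0.36 to 0.050), RPS25 (-0.047 to 0.30), MDM2 (-0.072 to 0.053), MTOR (-0.052 to 0.013), LARP1 (-0.058 to 0.063), RPS14 (-0.036 to 0.18), RPS27L (-0.16 to 0.053), RPS3 (-0.030 to 0.11), RPL36AL (-0.18 to 0.017), EEF1B2 (-1.23 to 0.44), EEF1D (-0.53 to 1.11), RRN3 (-0.71 to 0.076) and MRPS18B (-0.87 to 0.34). The other log2 fold changes given for single genes kept their direction. The cause of these changes was not tested. Depth limits RPL36A, RPS10, RPL3L and RPL10L most.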
